A study of Mus musculus with 12 samples.

Results

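The transcripts of 6 Fc receptor chains were followed through basophil maturation in the mouse. The chains were chosen by gene symbol, for their role as Fc receptor chains, and make up 6 of the 32227 genes in the count table. They comprised the 3 chains of the high-affinity IgE receptor FcεRI (Fcer1a, Ms4a2 and Fcer1g) and the IgG receptor chains Fcgr2b, Fcgr3 and Fcgr4. Basophil-lineage cells came from wild-type C57BL/6J mice, and the sources used here give neither an age nor a treatment. Basophil progenitors (BaPs) were CD34+ CLEC12A-high cells of the bone marrow (BM). Pre-basophils, which the sample titles call immature basophils, were CD34- CLEC12A-high CD9-low BM cells. Mature basophils were CLEC12A-low CD9-high cells, taken either from BM or from spleen. All gates lay within CD200R3+ cKit- cells, and antibody to FcεRIα was not among the markers that defined them. Each of the 4 groups held 3 libraries of cells pooled from several animals, so p-values measure the spread between pools. All 4 groups were wild type, and no group served as a treated or untreated control.

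FcεRI is a complex of an IgE-binding alpha chain (Fcer1a), a signal-amplifying beta chain (Ms4a2) and a dimer of the common gamma chain (Fcer1g), whose tyrosine motifs recruit the kinase Syk once antigen cross-links bound IgE. In basophils this triggers degranulation and the release of type 2 cytokines. The gamma chain is not private to FcεRI, since the activating IgG receptors FcγRIII (Fcgr3) and FcγRIV (Fcgr4) need it too. FcγRIIB (Fcgr2b) is the inhibitory member and carries a motif that recruits the phosphatase SHIP-1, encoded by Inpp5d.

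One library stood apart. BaP replicate 3 had counts in 26743 genes, against 21911 to 24704 in the other 11, and its basophil markers summed to 0.386 times the mean of BaP replicates 1 and 2. In the same terms its NK cell markers stood at 159.9 times, T cell markers at 15.5, B cell markers at 7.65, monocyte and macrophage markers at 6.26, dendritic cell markers at 5.46, erythroid and platelet markers at 4.62, neutrophil markers at 4.56, mast cell markers at 2.93 and eosinophil markers at 2.91 times. The 5 abundant Fc receptor chains in this library lay at 0.396 (Fcer1a), 0.434 (Ms4a2), 0.592 (Fcer1g), 0.523 (Fcgr2b) and 0.452 (Fcgr3) of the other BaP libraries. How much of these values came from other cells was not tested, and the tests and counts that involve it are given with and without it. In bulk libraries, fewer cells of a type and less RNA per cell cannot be told apart.

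All 10 basophil markers had counts in every group. Their sum ranged from 59617 to 69063 CPM (counts divided by the TMM-scaled library size) in pre-basophils. It was 12064 to 14892 CPM in BM mature basophils and 6642 to 7531 CPM in spleen mature basophils. Prss34 and Mcpt8 made up most of the pre-basophil sum, at means of 45144 and 11892 CPM. In BM mature basophils they had 5065 and 1731 CPM. Means of Cpa3, Il3ra and Il13 were also lower in BM mature basophils. Those of Cd200r3 (945 against 1118 CPM), Itga2 (84.6 against 173), Hdc (1591 against 2246), Gata2 (1900 against 2262) and Il4 (94.1 against 121) were higher there. B cell markers summed to 310 to 552 CPM in the spleen libraries and to 52.8 to 74.7 CPM in BM mature basophils. Neutrophil markers ranged from 196 to 2160 CPM in BaPs and 443 to 2014 CPM in pre-basophils, against 244 to 297 CPM in the 6 mature libraries. Library totals ran from 3596108 to 8151030 counts, and a floor of 3 counts corresponded to 0.290 to 0.955 CPM.

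**Figure D1:**
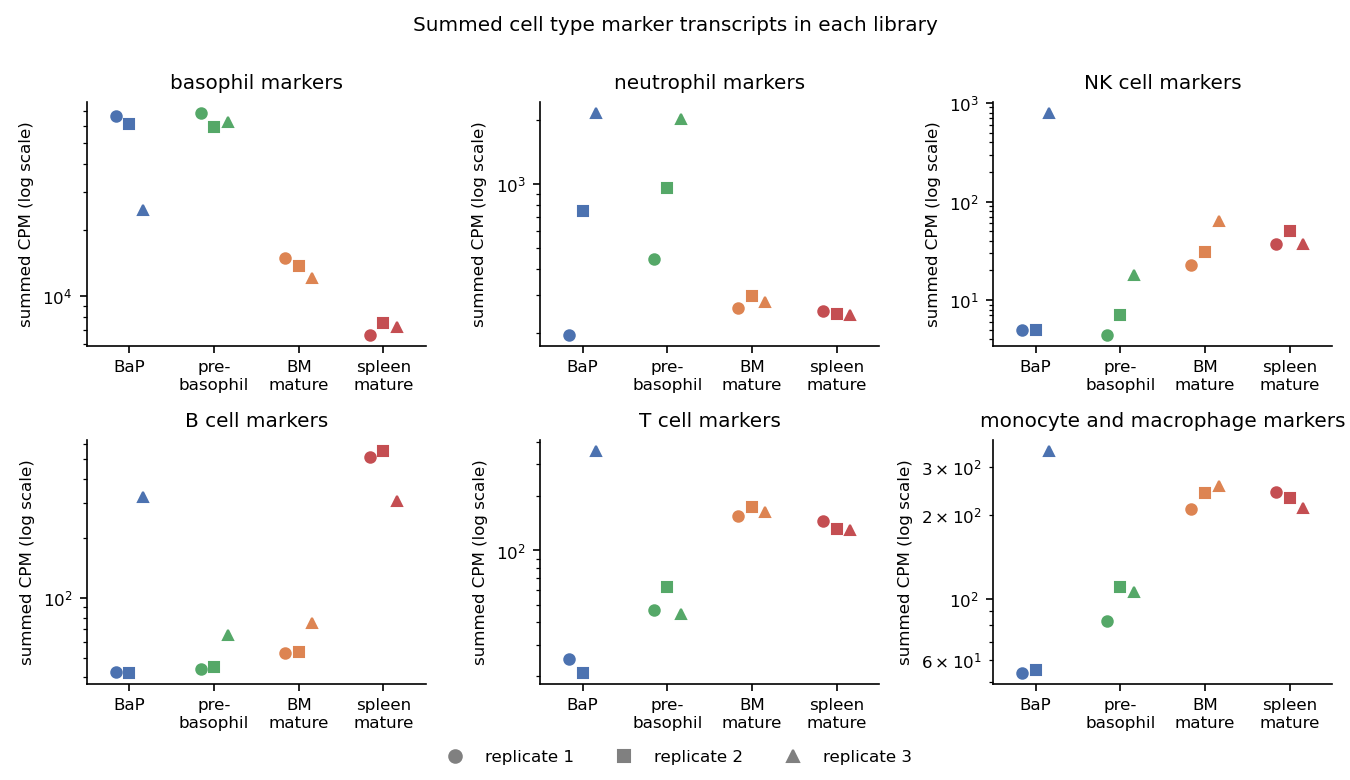
Summed CPM of marker genes for 6 cell types (vertical axis, logarithmic) in each of the 12 libraries, with groups on the horizontal axis, colour for group and symbol for replicate. BaP replicate 3 is the lone blue triangle, at 24640 CPM of basophil markers and 797 CPM of NK cell markers, and the spleen libraries carry 310 to 552 CPM of B cell markers.

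Positions were taken from GENCODE M21 (GRCm38). Of the 6 genes, 5 lie on chromosome 1. Fcgr2b (ENSMUSG00000026656.15, chr1:170958617-170976547, minus strand), Fcgr4 (ENSMUSG00000059089.4, chr1:171018920-171029761, plus strand), Fcgr3 (ENSMUSG00000059498.13, chr1:171051174-171064935, minus strand) and Fcer1g (ENSMUSG00000058715.11, chr1:171229572-171234365, minus strand) share 276 kb. Fcer1a (ENSMUSG00000005339.10, chr1:173221284-173227214, minus strand) sits 1.99 Mb further on, and Ms4a2 (ENSMUSG00000024680.12, chr19:11615523-11623719, minus strand) is in the MS4A cluster on chromosome 19.

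The sequences upstream of Fcer1a and Ms4a2 are shown because these 2 genes, on different chromosomes, had the same order of levels over the 4 groups. Each run is the 250 bases before the RefSeq start (GRCm38.p6), written 5′ to 3′ on the gene's own strand. Capitals mark matches to the GATA motif AGATAA, also with T as its first or G as its last letter, on either strand, GATA2 being a transcription factor that basophils require.
Fcer1a, chr1:173227230-173227479, minus strand: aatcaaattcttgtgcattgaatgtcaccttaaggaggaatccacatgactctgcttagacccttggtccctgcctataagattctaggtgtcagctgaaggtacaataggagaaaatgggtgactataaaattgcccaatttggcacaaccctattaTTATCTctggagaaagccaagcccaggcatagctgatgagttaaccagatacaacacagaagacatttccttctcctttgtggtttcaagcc
Ms4a2, chr19:11623720-11623969, minus strand: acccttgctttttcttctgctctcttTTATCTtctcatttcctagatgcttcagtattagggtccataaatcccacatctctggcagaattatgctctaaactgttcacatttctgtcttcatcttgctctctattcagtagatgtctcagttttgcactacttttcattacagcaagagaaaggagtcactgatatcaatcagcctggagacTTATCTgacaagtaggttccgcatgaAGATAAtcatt

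The Fcer1a window held 1 such match and the Ms4a2 window 3, while Fcer1g, Fcgr2b and Fcgr3 had none in theirs and Fcgr4 had 1. Of all 32851 RefSeq promoter windows of this length, 26.5% held at least 1. The same windows were searched on both strands for 5 other motifs. The E-box CANNTG was present in 66.2% of all windows and the PU.1 core GAGGAA in 23.3%. The RUNX core TGTGGT was present in 14.0%, a C/EBP motif TTGCNNAA in 9.56% and a STAT motif TTCNNNGAA in 7.02%. Fcer1a had 2 E-box matches, 1 each to the PU.1, RUNX and C/EBP letters and none to the STAT letters, and Ms4a2 had none to any of the 5. A match describes letters only, and no binding was measured in these samples.

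Fcgr2b and Fcgr3 are near copies of each other in the part that encodes their IgG-binding domains, which bears on how their reads could be told apart. Over 509 aligned coding bases they were 96.5% identical, against 64.3% between Fcgr2b and Fcgr4 over 456 bases. Their longest identical coding run is 129 bases long, and it is printed here because a read from it fits either gene. It covers coding bases 278 to 406 of Fcgr2b and 263 to 391 of Fcgr3, and capitals mark the 27 bases that follow an exon junction placed alike in both genes.
Fcgr2b and Fcgr3, shared coding run: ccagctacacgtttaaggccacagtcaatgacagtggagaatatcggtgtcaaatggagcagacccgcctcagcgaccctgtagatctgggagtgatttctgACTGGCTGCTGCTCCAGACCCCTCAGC

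Of all distinct 50-base words in the Fcgr3 transcripts, 9.58% also occurred in Fcgr2b, and 2.92% of those of Fcgr2b occurred in Fcgr3. Ms4a2 shared 2.10% of its words with Ms4a4b, while Fcer1a, Fcer1g and Fcgr4 shared none with another gene. The sources used here do not say how reads that fit several genes were assigned, nor whether strand was used. The antisense gene Gm38204, which overlaps the start of Fcgr2b, had 0 to 6 counts per library, against 701 to 1286 for Fcgr2b.

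Of the 6 chains, 5 were among the abundant transcripts and Fcgr4 was near the floor. On the scale of CPM per kb of exon, Fcer1g and Fcer1a lay highest. Fcer1g ranked 25th to 54th of 30928 genes across the 12 libraries and Fcer1a 31st to 125th. Ms4a2 ranked between 145 and 534, Fcgr3 between 213 and 501 and Fcgr2b between 1266 and 2496. In pre-basophils the per-kb level was 1814 ± 89.3 for Fcer1g, 1578 ± 110 for Fcer1a, 353 ± 8.28 for Ms4a2, 232 ± 17.5 for Fcgr3 and 36.5 ± 2.14 for Fcgr2b (SD, n = 3). The inhibitory chain was thus the least abundant of the 5 per unit length in every group. The exon length used for Fcgr2b (5790 bp) includes all annotated isoforms and lowers its per-kb value relative to a shorter isoform.

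**Figure D2:**
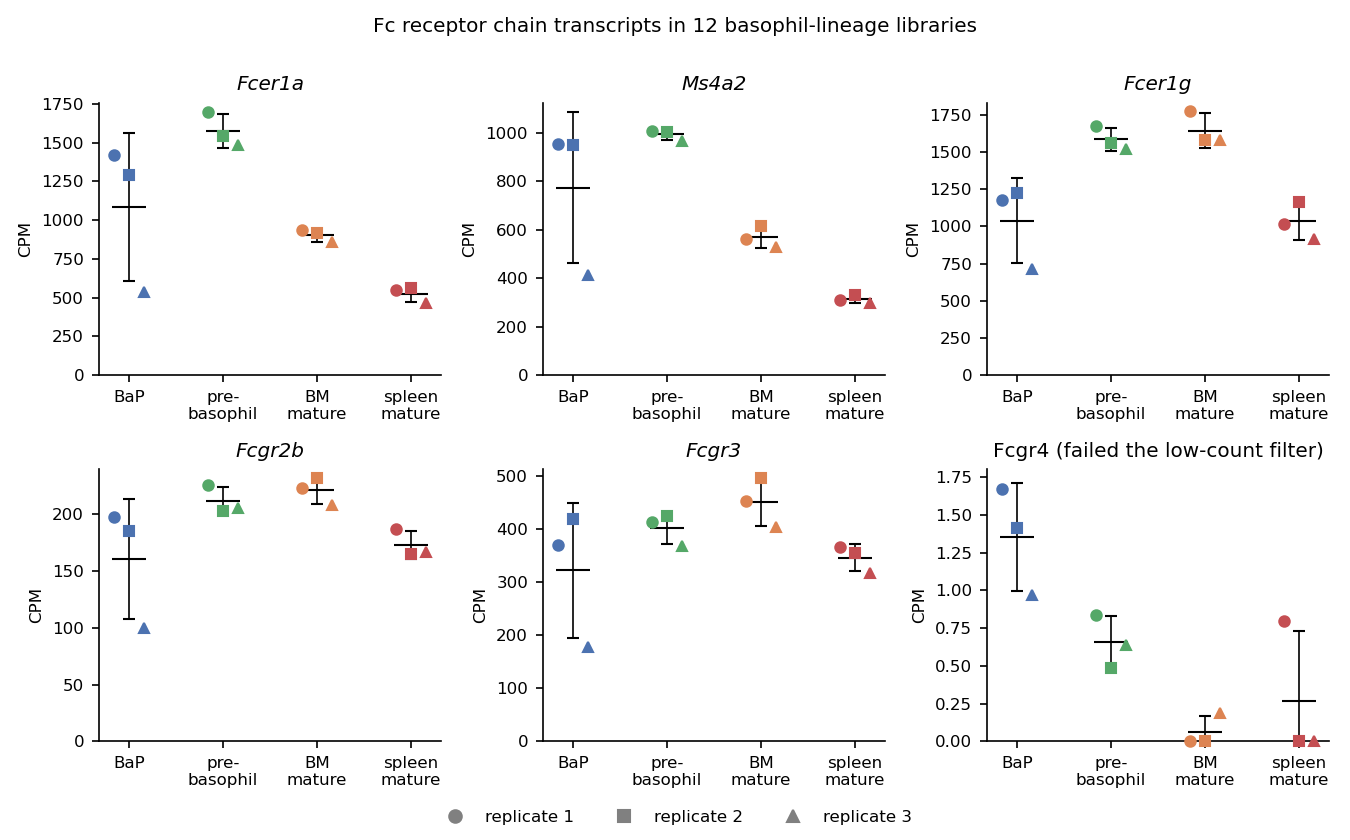
CPM (vertical axis, from 0) of each Fc receptor chain in the 12 libraries, by group, with symbols for replicates, a horizontal bar for the mean and error bars for the SD (n = 3). Fcer1a and Ms4a2 are highest in pre-basophils and lowest in spleen, Fcer1g is highest in BM mature basophils and pre-basophils, and BaP replicate 3 is the lowest BaP library for all 6 genes.

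The alpha and beta chains of FcεRI were highest in pre-basophils and lowest in spleen mature basophils. Fcer1a, which binds IgE, had 1696, 1544 and 1483 CPM in the 3 pre-basophil libraries, and mature basophils had 934, 917 and 856 CPM in BM and 548, 562 and 462 CPM in spleen. In BaPs it had 1423, 1291 and 537 CPM. The 3 groups other than BaPs did not overlap, and BaP replicates 1 and 2 lay between pre-basophils and BM mature basophils. Separation of CPM ranges is given here and below as a description only, since the share of all genes that show it is not given. Ms4a2, the beta chain, had 1008, 1004 and 966 CPM in pre-basophils and 954, 950 and 413 CPM in BaPs, while mature basophils had 560, 615 and 529 CPM in BM and 310, 330 and 297 CPM in spleen. It followed the same order as Fcer1a, and the 2 genes had a Pearson r of 0.983 over the 12 libraries on the log2 CPM scale, or 0.991 without BaP replicate 3, given as a description since group and depth are shared.

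Between pre-basophils and BM mature basophils, the step at which CLEC12A is lost and CD9 gained, Fcer1a was 1.74-fold and Ms4a2 1.75-fold higher in pre-basophils (log2 0.80 ± 0.25 and 0.80 ± 0.23, SE; edgeR adjusted p = 0.0294 and 0.0180). These were 2 of the 5 chains tested, and 27.3% of the 15083 genes tested were called at an adjusted p below 0.05. Fcer1g, Fcgr2b and Fcgr3 were not called, with log2 differences of -0.05 (95% interval -0.42 to 0.32), -0.07 (-0.47 to 0.34) and -0.17 (-0.65 to 0.32). The sign of these 3 turned under scaling by library size alone, and that of Fcer1g and Fcgr2b also under a scaling that sets changed genes aside. The call for Fcer1a was lost without any 1 of the 6 libraries compared, at an adjusted p of 0.0554 to 0.104. That for Ms4a2 was lost without pre-basophil replicate 1 (0.0603) or BM mature replicate 1 (0.0645) or 3 (0.0683). Without BaP replicate 3, which shares only the estimate of spread with this comparison, the log2 fold changes stayed at 0.80 and 0.81. The edgeR adjusted p then fell to 4.29e-06 and 1.06e-06, with 35.7% of genes called.

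Spleen mature basophils had lower mean levels of all 5 abundant chains than BM mature basophils. The log2 differences were -0.86 ± 0.23 for Ms4a2, -0.78 ± 0.25 for Fcer1a, -0.67 ± 0.17 for Fcer1g, -0.38 ± 0.23 for Fcgr3 and -0.35 ± 0.19 for Fcgr2b (SE). Of these, Ms4a2 (edgeR adjusted p = 0.0372) and Fcer1g (0.0335) were called and Fcer1a (0.0733), Fcgr3 (0.319) and Fcgr2b (0.270) were not, against 7.83% of all genes tested. Without BaP replicate 3 all 5 were called, at an adjusted p of 5.59e-06 for Ms4a2, 3.93e-05 for Fcer1a, 0.000183 for Fcer1g, 0.0133 for Fcgr3 and 0.0131 for Fcgr2b, with 18.0% of genes called. All 5 were also called when the 6 mature libraries alone were fitted, with 16.4% of genes called. Without 1 of the mature libraries or pre-basophil replicate 1 or 2 none of the 5 was called, and without pre-basophil replicate 3 only Fcer1g was. The B cell markers that were high in the spleen libraries move the other way from Fcgr2b, which B cells also express, and their part in its value was not tested.

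Over the longer interval from pre-basophils to spleen mature basophils, both the alpha chain and the beta chain (3.18-fold) were higher in pre-basophils (log2 1.59 ± 0.26 and 1.67 ± 0.23, SE; edgeR adjusted p = 0.000238 and 7.95e-05). Fcer1g was 1.53-fold higher (log2 0.62 ± 0.17, adjusted p = 0.0102). That is 3 of 5 chains called, against 45.7% of all genes tested. The Fcer1g call was lost without spleen mature replicate 3 (0.0526). Fcgr2b (log2 0.29) and Fcgr3 (0.21) were not called, at adjusted p of 0.229 and 0.456, and Fcgr2b was called without BaP replicate 3 (0.0133).

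BaPs were compared with each later group. Against spleen mature basophils, Fcer1a was 2.07-fold (log2 1.05 ± 0.25, SE) and Ms4a2 2.47-fold (1.30 ± 0.23) higher in BaPs (edgeR adjusted p = 0.00320 and 0.000316), 2 of 5 chains against 54.5% of all genes. The Fcer1a groups overlapped only through BaP replicate 3, and the log2 values without it were 1.38 and 1.62. Against BM mature basophils neither passed with all libraries (log2 0.26, adjusted p = 0.418, and 0.44, 0.129), and BaP replicate 3 lay below every BM mature library for both. Under scaling by library size alone both were called in all libraries (Fcer1a 0.64, 0.0247, and Ms4a2 0.82, 0.00350), and Ms4a2 was called without the count filter (0.44, 0.0119). With BaP replicate 3 left out Fcer1a was 0.60 (adjusted p = 0.000163) and Ms4a2 0.76 (3.61e-06) higher in BaPs on the log2 scale. Against pre-basophils neither was called, at log2 -0.54 (edgeR adjusted p = 0.214) for Fcer1a and -0.36 (0.375) for Ms4a2. With replicate 3 left out these values were -0.21 (0.243) and -0.05 (0.783). The BaP libraries lay below all pre-basophil libraries for both genes, for Ms4a2 at 954 against 966 CPM where closest.

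The gamma chain followed another order. Fcer1g had 1779, 1579 and 1578 CPM in BM mature basophils, 1673, 1559 and 1524 CPM in pre-basophils, 1180, 1228 and 712 CPM in BaPs and 1018, 1168 and 915 CPM in spleen mature basophils. BM mature basophils and pre-basophils overlapped, as did BaPs and spleen mature basophils, and the first pair lay wholly above the second. BaPs and spleen mature basophils differed by log2 0.01 (edgeR adjusted p = 0.97), and by 0.23 (0.0783) without BaP replicate 3, when their ranges no longer overlapped. Fcer1g was lower in BaPs than in BM mature basophils by 0.66 ± 0.17 on the log2 scale (SE, 1.58-fold, edgeR adjusted p = 0.00665), the only 1 of 5 chains called there against 45.0% of all genes. Without BaP replicate 3 Fcer1g was lower in BaPs by 0.44 (0.00313), but scaling by library size alone left it at -0.26 (0.142). Against pre-basophils it was lower in BaPs by 0.61 ± 0.17 (SE, adjusted p = 0.0493), again the only chain called, with 7.08% of genes called. This call was lost without any 1 of the pre-basophil, BM mature or spleen mature libraries (0.0599 to 0.169), under RLE scaling, the size factors of DESeq2 (0.0654), library size alone (0.0660) or DEGES scaling, which sets changed genes aside (0.0785), and in a fit of the 2 groups alone (0.131). It held without BaP replicate 3 (log2 -0.39, adjusted p = 0.0298).

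**Figure D3:**
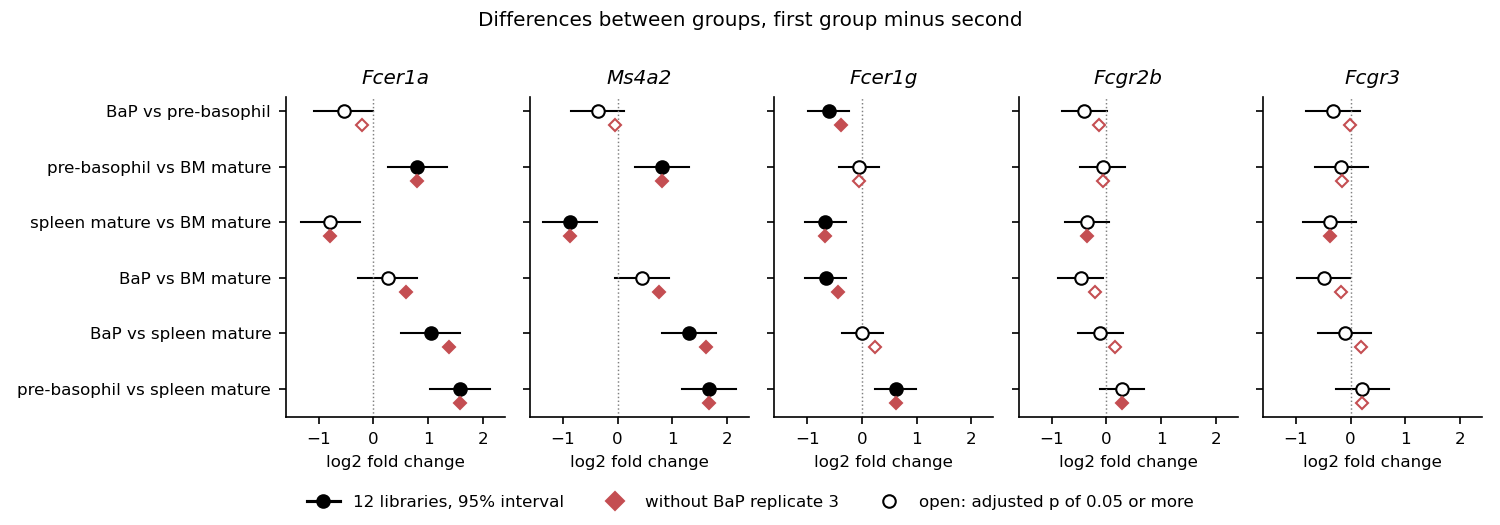
Log2 fold change (horizontal axis) of the 5 tested chains in the 6 comparisons between groups, first group minus second, from the edgeR fit to 12 libraries (circles with 95% intervals) and from the fit without BaP replicate 3 (diamonds). Filled symbols have an adjusted p below 0.05. In pre-basophils against BM mature basophils only Fcer1a and Ms4a2 are filled, at 0.80, and in spleen against BM mature basophils all 5 diamonds are filled and lie below 0.

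A ratio between chains within a library does not depend on how libraries are scaled. The ratio of Fcer1g to Fcer1a counts was 0.986, 1.01 and 1.03 in pre-basophils and 0.829, 0.951 and 1.33 in BaPs, the last in replicate 3. Among mature basophils it was 1.90, 1.72 and 1.84 in BM and 1.86, 2.08 and 1.98 in spleen. All 6 CLEC12A-high libraries lay below all 6 mature libraries, with a difference of -0.91 on the log2 scale, about 0.534 times the mature ratio (two-sided exact permutation test, p = 0.00216, the smallest that 6 against 6 allows, 0.00649 after Benjamini-Hochberg adjustment over 3 ratios). Leaving out BaP replicate 3 gave a difference of -0.98 (exact p = 0.00433, the smallest for 5 against 6). Exact permutation within replicate numbers, which pair the BM libraries but not those of spleen, gave p = 0.00926, the smallest it allows. Between the mature groups the ratio was 1.82 ± 0.0927 in BM and 1.97 ± 0.109 in spleen (SD, n = 3), with overlapping ranges. Monocyte and macrophage markers summed to 211 to 255 CPM in the mature libraries and 83.3 to 111 CPM in pre-basophils. In BaPs they summed to 54.0, 55.4 and 343 CPM, while neutrophil markers were higher in most CLEC12A-high libraries. The part of other cells in the ratio was not tested.

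The ratio of Ms4a2 to Fcer1a varied less. It was 0.725 ± 0.0498 in BaPs, against 0.632 ± 0.0326 in pre-basophils, 0.629 ± 0.0371 in the mature cells of BM and 0.599 ± 0.0392 in those of spleen (SD, n = 3). The log2 difference of 0.14 between CLEC12A-high and mature libraries did not pass (exact permutation p = 0.0584, adjusted 0.0877), and the ranges overlapped. Without BaP replicate 3 it was 0.10 (exact permutation p = 0.117). With all libraries, exact permutation within replicate numbers gave p = 0.0556. The ratio of the inhibitory to the activating IgG receptor, Fcgr2b to Fcgr3, was 0.512 ± 0.0624, 0.528 ± 0.0439 and 0.492 ± 0.0238 in the first 3 of these groups and lay between 0.463 and 0.525 in the spleen libraries. Its log2 difference of 0.06 did not pass either (exact permutation p = 0.340, adjusted 0.340), nor did that of 0.04 without BaP replicate 3 (exact permutation p = 0.545). With all libraries, exact permutation within replicate numbers gave p = 0.0556 for this ratio as well. Reads of the shared run may count for either gene of this last ratio.

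**Figure D4:**
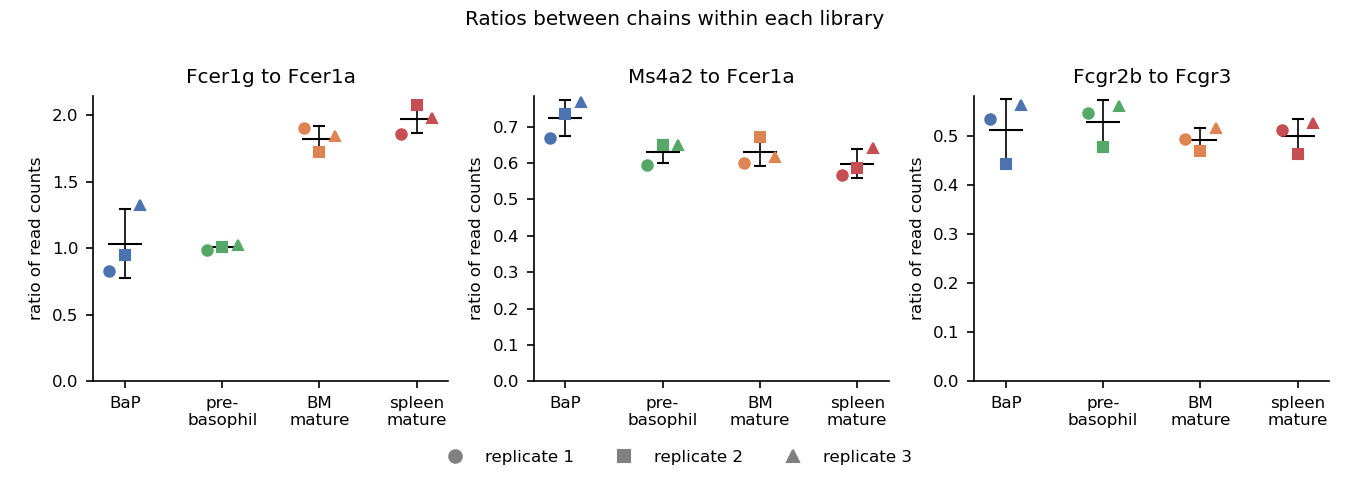
Ratio of read counts between 2 chains within each library (vertical axis, from 0), by group, with symbols for replicates and the mean and SD in black (n = 3). The Fcer1g to Fcer1a ratio lies between 0.829 and 1.33 in the 6 BaP and pre-basophil libraries and between 1.72 and 2.08 in the 6 mature libraries. The other 2 ratios overlap between these 2 sets of 6 libraries. Between single groups, the Ms4a2 to Fcer1a ratio in BaPs (0.670 to 0.768) lies above pre-basophils (0.594 to 0.651) and spleen mature basophils (0.567 to 0.642). It overlaps BM mature basophils (0.600 to 0.671).

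The group means of Fcgr2b and Fcgr3 lay closer together than those of the FcεRI chains. Fcgr2b, the inhibitory receptor, had 223, 232 and 208 CPM in BM mature basophils, 226, 203 and 206 CPM in pre-basophils, 187, 165 and 167 CPM in spleen mature basophils and 197, 185 and 100 CPM in BaPs. Fcgr3, the activating receptor, had 454, 496 and 405 CPM in BM mature basophils, 414, 425 and 368 CPM in pre-basophils, 366, 356 and 318 CPM in spleen mature basophils and 370, 419 and 178 CPM in BaPs. Both genes had the same order of means, and no neighbours in that order passed the test. The last place of BaPs rested on replicate 3, since replicates 1 and 2 averaged 191 CPM for Fcgr2b and 394 CPM for Fcgr3, above the spleen means of 173 and 346 CPM. The log2 difference of BaPs from spleen was -0.11 for both genes with all libraries and 0.16 (Fcgr2b, edgeR adjusted p = 0.202) and 0.20 (Fcgr3, 0.132) without that library. The 2 genes had a Pearson r of 0.957 over the 12 libraries and 0.807 without BaP replicate 3. With Fcer1g the r was 0.891 and 0.860 for Fcgr2b and 0.855 and 0.776 for Fcgr3 in the same way, all as descriptions. Against BM mature basophils the BaP values were lower by log2 0.47 ± 0.19 for Fcgr2b and 0.49 ± 0.23 for Fcgr3 (SE), without a call (edgeR adjusted p = 0.0612 and 0.0937). With the replicate number as a block, which pairs the BM libraries, both were called (log2 -0.50, adjusted p = 0.0262, and -0.54, 0.0245), which brings the chains called in this comparison from 1 to 3 of 5, with 46.9% of all genes called under the block. The log2 differences were -0.20 (0.120) and -0.18 (0.181) without BaP replicate 3.

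An overall F test over the 4 groups called Fcer1a (edgeR adjusted p = 0.000965), Ms4a2 (0.000239) and Fcer1g (0.00408) and neither Fcgr2b (0.119) nor Fcgr3 (0.230). That is 3 of 5 chains tested, against 57.8% of all genes, and 5 of 5, against 65.8% of all genes, without BaP replicate 3.

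Fcgr4, whose protein pairs with the gamma chain on monocytes and neutrophils, failed the filter on low counts and was not tested with the rest. The BaP libraries held 7, 6 and 10 counts and the pre-basophil libraries 3, 2 and 4, while mature basophils had 0, 0 and 1 in BM and 5, 0 and 0 in spleen. Summed over libraries, 23 counts in BaPs against 1 in BM mature basophils gave a ratio of 15.3 after scaling, with an exact 95% interval of 2.48 to 630 that covers counting error only. The 6 CLEC12A-high libraries held 32 counts and the 6 mature libraries 6 (ratio 5.27, interval 2.17 to 15.4). In the fit without a count filter, the edgeR adjusted p was 0.00616 for BaPs against BM mature basophils and 0.0311 against spleen mature basophils. That fit called differences more readily than the main fit. For Fcer1a in BaPs against pre-basophils it gave an edgeR adjusted p of 0.00387 at log2 -0.55, against 0.214 at -0.54 with the filter. Its values for Fcgr4 therefore cannot be read beside those of the main fit. Pre-basophils were not called in that fit against BM (edgeR adjusted p = 0.165) or spleen (0.414) mature basophils. Without BaP replicate 3, which holds 10 of the 23 BaP counts, the ratio of BaPs to BM mature basophils was 19.2 (interval 2.89 to 818). That of CLEC12A-high to mature libraries was then 5.30 (2.08 to 16). Without that library and again without a count filter, the edgeR adjusted p was 0.00495 for BaPs against BM mature basophils. It was 0.0194 for BaPs against spleen mature basophils. For pre-basophils it was 0.150 and 0.375. Neutrophil markers were also higher in most CLEC12A-high libraries. BaP replicates 1, 2 and 3, with 7, 6 and 10 Fcgr4 counts, had 1.67, 1.41 and 0.968 CPM of Fcgr4. In the same order, neutrophil markers summed to 196, 751 and 2160 CPM and monocyte and macrophage markers to 54.0, 55.4 and 343 CPM. The part of other cells in the Fcgr4 counts was not tested.

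Genes whose levels most resembled each chain were ranked by Pearson r of log2 CPM over the 12 libraries, among 9638 genes, and are listed as a description. For Fcer1a they were Septin8 (0.979), Alox5 (0.976), the 5-lipoxygenase of leukotriene synthesis, and Scamp3 (0.976). For Ms4a2 they were Cpne2 (0.986), Lamtor2 (0.984) and Rps6ka5 (0.979). For Fcer1g they were the ubiquitin ligase gene Nedd4 (0.986), Ccni (0.984) and the actin-binding profilin gene Pfn1 (0.967). Gnai2 (0.960), Plp2 (0.945) and Atraid (0.945) came first for Fcgr2b, and Rcn3 (0.973), Bri3bp (0.953) and Rab27a (0.948), a small GTPase of granule release, for Fcgr3. Without BaP replicate 3 the same genes had an r of 0.943 to 0.986 with the FcεRI chains, 0.823 to 0.885 with Fcgr2b and 0.751 to 0.863 with Fcgr3. Alox5 had mean levels of 652 CPM in pre-basophils against 493 CPM in BaPs, and 411 CPM (BM) and 306 CPM (spleen) in mature cells.

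Of 20 genes that carry the FcεRI signal, all tested, none was higher and 7 were lower in pre-basophils than in BM mature basophils, where Fcer1a and Ms4a2 were higher. These are 35.0% of the list, against 27.3% of all genes, and the other 13 were not called. The median log2 difference was -0.39 beside -0.00 over all genes. Syk, the kinase recruited by the gamma chain, was lower (log2 -0.73 ± 0.14, SE, edgeR adjusted p = 0.00178), as was Plcg1 (-0.86 ± 0.23, 0.0119), a phospholipase of calcium signalling. Markers of some other leukocytes, which use many of these genes, were also lower in pre-basophils. T cell markers summed to 44.5 to 62.3 CPM in pre-basophils and 156 to 174 CPM in BM mature basophils, monocyte and macrophage markers to 83.3 to 111 and 211 to 255 CPM, and NK cell markers to 4.47 to 18.1 and 22.6 to 63.6 CPM. Eosinophil markers were lower too (55.7 to 60.1 and 67.5 to 104 CPM). Neutrophil markers went the other way, at 443 to 2014 CPM in pre-basophils and 261 to 297 CPM in BM mature basophils. So did mast cell markers (4.16 to 5.84 and 0.955 to 2.25 CPM). B cell markers (43.9 to 65.6 and 52.8 to 74.7 CPM) and dendritic cell markers overlapped. The part of other cells in the difference was not tested.

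In BaPs against BM mature basophils, 13 were lower and 1 was higher (median -0.59), 70.0% of the list against 45.0% of all genes. The adaptor genes Gab2 (log2 -1.61 ± 0.12, SE, edgeR adjusted p = 4.74e-07) and Lat2 (-1.35 ± 0.16, 1.15e-05) led them, and without BaP replicate 3 these stood at -1.49 and -1.19. Against spleen mature basophils, 13 were lower in BaPs (65.0%, against 54.5% of all genes), with Pik3cd (-1.70, and -2.23 without replicate 3), a catalytic subunit of phosphoinositide 3-kinase, first. In pre-basophils 14 were lower than in spleen (70.0%, against 45.7%), with Grap2 (-2.84 ± 1.10, 0.0492) and Plcg1 (-1.59 ± 0.22, 6.71e-05) first. Grap2 was near the floor in pre-basophils, with 17 counts and a mean of 1.18 CPM, and varied widely in BaPs (10.8 ± 17.5 CPM, SD, n = 3). In spleen against BM mature basophils 3 were higher and none lower (15%, against 7.83%), including Pik3ca (0.76 ± 0.20, 0.0358) and Plcg1 (0.74 ± 0.21, 0.0478). BaPs had 5 lower than pre-basophils (25%, against 7.08%), among them Gab2 (-0.92, and -0.80 without replicate 3). Lat2 was the most abundant gene of the list, with 383 ± 19.4 CPM in pre-basophils against 218 ± 52.7 CPM in BaPs, and 557 ± 36.5 CPM (BM) and 662 ± 73.4 CPM (spleen) in mature cells (SD, n = 3). The list without BaP replicate 3 had 11 lower and 1 higher in pre-basophils against BM (60.0%, against 35.7% of all genes), 15 and 1 in BaPs against BM (80.0%, against 51.3%), 16 and 1 in BaPs against spleen (85.0%, against 61.6%) and 15 and 3 in pre-basophils against spleen (90%, against 54.4%). It then had 8 lower in BaPs against pre-basophils (40.0%, against 12.4%) and 7 higher and 1 lower in spleen against BM (40.0%, against 18.0%).

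**Figure D5:**
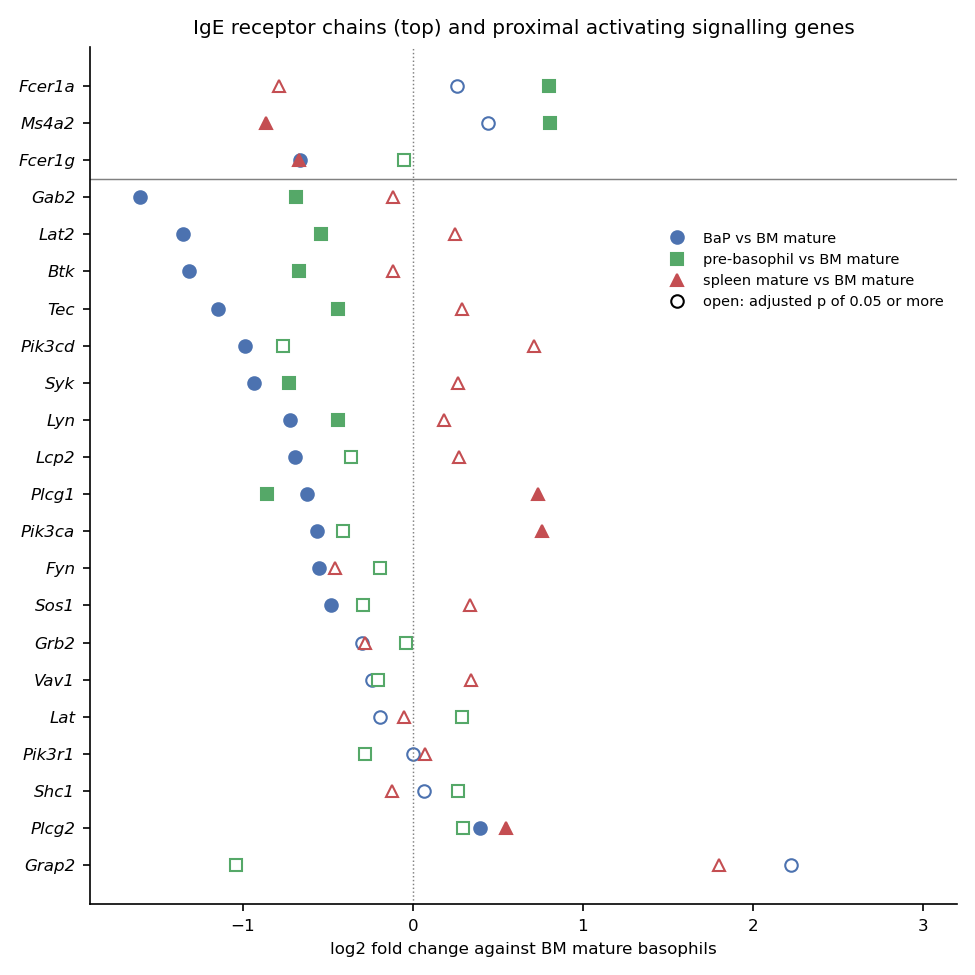
Log2 fold change against BM mature basophils (horizontal axis) of the 3 FcεRI chains and, below the line, of 19 of the 20 proximal activating genes in order of the BaP value. Blue circles are BaPs, green squares pre-basophils and red triangles spleen mature basophils, and filled symbols have an adjusted p below 0.05. Fcer1a and Ms4a2 lie at 0.80 in pre-basophils, where 7 signalling genes are filled and all 7 lie below 0.

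The inhibitory arm held 17 tested genes of 18. Between pre-basophils and BM mature basophils, 1 was higher and 4 were lower (median -0.05), 29.4% of the list and close to the 27.3% of all genes. The higher gene was Lair1, an inhibitory collagen receptor (log2 1.89 ± 0.26, SE, edgeR adjusted p = 0.000134), and Pirb (-1.81 ± 0.33, 0.00120) led the others. Lilrb4a, an inhibitory receptor and the most abundant gene of the list, had 1252 ± 36.1 CPM in pre-basophils against 449 ± 44.3 CPM in BaPs, and 2863 ± 289 CPM (BM) and 2008 ± 204 CPM (spleen) in mature cells (SD, n = 3). It was lower in BaPs than in BM mature basophils (-2.67 ± 0.13, 1.03e-08) and than in pre-basophils (-1.48), and stood at -2.59 and -1.40 without BaP replicate 3. Inpp5d, the SHIP-1 gene through which Fcgr2b acts, had a mean of 89.1 CPM in BaPs, 110 CPM in pre-basophils, 125 CPM in the mature cells of BM and 143 CPM in those of spleen, and was chosen here for its role after its values were seen. BaPs had 4 higher and 8 lower than BM mature basophils (70.6%, against 45.0% of all genes) and 3 higher and 8 lower than spleen (64.7%, against 54.5%). Pre-basophils had 2 higher and 6 lower than spleen (47.1%, against 45.7%). BaPs had 2 lower than pre-basophils (11.8%, against 7.08%), namely Lilrb4a and Csk (-0.46). In spleen against BM mature basophils 2 were higher and 1 was lower (17.6%, against 7.83%), with Ptpn6, the SHP-1 phosphatase gene, higher (0.71 ± 0.10, 0.00293) and Lilrb4a lower (-0.51). Leaving out BaP replicate 3 gave 2 higher and 8 lower in BaPs against BM (58.8%, against 51.3% of all genes), 2 and 7 in BaPs against spleen (52.9%, against 61.6%), 2 and 9 in pre-basophils against spleen (64.7%, against 54.4%), 1 and 6 in BaPs against pre-basophils (41.2%, against 12.4%), 1 and 4 in pre-basophils against BM (29.4%, against 35.7%) and 3 and 3 in spleen against BM (35.3%, against 18.0%).

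Of 13 other Fc receptor and Fc receptor-like genes, 8 were tested. Fcgr1, which encodes the high-affinity IgG receptor, was not tested and averaged 0.176 CPM in BaPs with no count elsewhere. In spleen against BM mature basophils 3 were higher and none lower, 37.5% of those tested against 7.83% of all genes, among them Fcrl1 (log2 3.77 ± 0.81, SE, edgeR adjusted p = 0.0162) and Fcmr (2.98 ± 0.84, 0.0462), both known from B cells. Fcer2a, the low-affinity IgE receptor CD23 of B cells, had 7.74 ± 2.34 CPM in spleen (SD, n = 3) and 0.723 to 1.49 CPM on average in the BM groups, and was 2.60 lower in BaPs than in spleen on the log2 scale. These 3 genes moved with the summed B cell markers of the spleen libraries, a list that holds Fcer2a, and the part of B cell RNA was not tested. Pigr, the most abundant of the list, had 87.2 ± 25.1 CPM in BM mature basophils (SD, n = 3) and was lower in pre-basophils (-1.56 ± 0.32, 0.00268) and BaPs (-2.09 ± 0.33, 0.000153, and -2.71 without replicate 3), the only call in each of these comparisons (12.5%, against 27.3% and 45.0% of all genes). In all, 4 were lower in BaPs (50%, against 54.5%) and 5 in pre-basophils (62.5%, against 45.7%) than in spleen, with Fcrl1 at -3.32 and -4.82 and Fcmr at -4.36 in the second, and none was called in BaPs against pre-basophils (edgeR), against 7.08% of all genes. Fcrl1 had no count in BaP replicates 1 and 2 and Fcer2a 3 in all, and without replicate 3 both were again called lower in BaPs than in spleen. In BaPs against pre-basophils the median log2 difference was 0.70 and turned to -0.99 without BaP replicate 3, where 1 gene was lower (12.5%, against 12.4% of all genes). The other comparisons then had 3 lower in BaPs than in BM mature basophils (37.5%, against 51.3%), 6 lower in BaPs and 6 in pre-basophils than in spleen (75.0% each, against 61.6% and 54.4%), 1 lower in pre-basophils than in BM (12.5%, against 35.7%), and 4 higher and 2 lower in spleen than in BM (75.0%, against 18.0%).

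Of the other adaptors with activating motifs and the receptors that pair with the gamma chain, 8 of 10 genes in the table were tested. Tyrobp, which encodes the adaptor DAP12 and is akin to Fcer1g in role, had 1926 ± 99.0 CPM in pre-basophils against 1104 ± 233 CPM in BaPs, and 2922 ± 299.8 CPM (BM) and 2331 ± 166 CPM (spleen) in mature cells (SD, n = 3). It was lower in BaPs than in pre-basophils (log2 -0.80 ± 0.15, SE, edgeR adjusted p = 0.00675) and than in BM mature basophils (-1.40 ± 0.15, 6.38e-06), where Hcst, the DAP10 gene, was also lower (-0.84). Without BaP replicate 3 the Tyrobp values were -0.63 and -1.23 and that of Hcst -0.75. Clec4e and Clec4d, lectin receptors that signal through the gamma chain, were higher in pre-basophils than in BM mature basophils (0.85 and 1.14, adjusted p = 0.0461 and 0.0240) and lower in spleen than in BM (-2.34 and -1.47). Both were also higher than in spleen in BaPs (2.73 and 2.03, and 3.04 and 1.88 without replicate 3) and pre-basophils (3.19 and 2.60). The counts of higher and lower genes were 2 and 2 in pre-basophils against BM mature basophils (50%, against 27.3% of all genes), 0 and 2 in spleen against BM (25%, against 7.83%), 0 and 2 in BaPs against BM (25%, against 45.0%), 2 and 2 in BaPs against spleen (50%, against 54.5%), 2 and 1 in pre-basophils against spleen (37.5%, against 45.7%) and 0 and 1 in BaPs against pre-basophils (12.5%, against 7.08%). Leaving out BaP replicate 3 gave 2 and 3 in pre-basophils against BM (62.5%, against 35.7%), 1 and 3 in spleen against BM (50%, against 18.0%), 1 and 4 in BaPs against BM (62.5%, against 51.3%), 2 and 6 in BaPs against spleen (all 8, against 61.6%), 2 and 5 in pre-basophils against spleen (87.5%, against 54.4%) and 0 and 1 in BaPs against pre-basophils (12.5%, against 12.4%). It also turned the median of BaPs against BM from 0.47 to -1.05 and that against spleen from 0.71 to -1.50.

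Of the other MS4A family members, relatives of Ms4a2, 8 of the 14 genes in the table were tested. The one with the highest mean CPM was Ms4a3, known from granulocyte and monocyte progenitors, with 218 ± 29.4 CPM in pre-basophils against 337 ± 157 CPM in BaPs, and 18.3 ± 9.05 CPM (BM) and 6.01 ± 0.715 CPM (spleen) in mature cells (SD, n = 3). Pre-basophils had more of it than mature basophils of the BM did (log2 3.60 ± 0.40, SE, edgeR adjusted p = 2.49e-05), while Ms4a6b was lower (-0.69 ± 0.12, 0.000765). Ms4a3 was also higher in BaPs than in BM (4.23, and 4.60 without replicate 3) and spleen (5.81 and 6.17) mature basophils and in pre-basophils than in spleen (5.18), and lower in spleen than in BM (-1.58). Ms4a6b was lower in BaPs than in BM mature basophils (-1.22, and -1.28 without replicate 3) and pre-basophils (-0.53 and -0.58), and Ms4a6c was lower in spleen (-0.93). Ms4a1, the B cell gene for CD20, was lower in BaPs (-1.87, and -3.26 without replicate 3) and pre-basophils (-2.97) than in spleen. Counts of higher and lower genes were 1 and 1 in pre-basophils against BM (25%, against 27.3% of all genes), 0 and 3 in spleen against BM (37.5%, against 7.83%), 1 and 2 in BaPs against BM (37.5%, against 45.0%) and against spleen (37.5%, against 54.5%), 2 and 1 in pre-basophils against spleen (37.5%, against 45.7%) and 0 and 1 in BaPs against pre-basophils (12.5%, against 7.08%). Leaving out BaP replicate 3, with 7 genes tested, gave 1 and 3 in pre-basophils against BM (57.1%, against 35.7%), in spleen against BM (57.1%, against 18.0%) and in BaPs against BM (57.1%, against 51.3%), 2 and 4 in BaPs against spleen (85.7%, against 61.6%), 2 and 3 in pre-basophils against spleen (71.4%, against 54.4%) and 1 and 2 in BaPs against pre-basophils (42.9%, against 12.4%).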

How the data were processed

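RNA of sorted cells was amplified by a whole-transcriptome workflow (TAS-Seq) and sequenced on an Illumina instrument. The authors deposited raw read counts per gene, made with Cutadapt 3.4 and Bowtie2 2.4.2. The methods name GRCm38 (Ensembl release 101) and the submitters' processing notes list GRCm39. Genes were matched by symbol, 30928 of 32227 to GENCODE M21 and the promoters to RefSeq GRCm38.p6. No molecular identifiers are mentioned, so intervals and floors cover counting error only.

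Counts were tested with edgeR 4.0.16 (R 4.3.3, quasi-likelihood F test, TMM scaling with factors of 0.844 to 1.30, filterByExpr with a minimum count of 10, Benjamini-Hochberg adjustment over 15083 genes, call at an adjusted p below 0.05). All 12 libraries entered 1 fit with a term per group and no block. CPM used TMM-scaled totals, and log2 CPM had a prior count of 2. Within-library ratios (0.5 counts added) were compared by exact permutation (SciPy 1.17.1). SE is the log2 fold change over the root of F. The procedure was tested on counts simulated for pre-basophils against BM mature basophils. It called 4% of true 1.5-fold, 52% of 2-fold and 98% of 4-fold increases, and 60% of changes to 0.5-fold. Of unchanged genes 0.056% were called. A chain that was not called may therefore still differ by 1.5-fold or 2-fold. Deviations from group means of same-numbered libraries correlated above 0.1 in every pair of BM groups (0.125 to 0.262), so the replicate number pairs BM libraries, and at 0.000366 to 0.0899 with spleen. DESeq2 1.42.0, limma 3.58.1, other scalings, filters and sample sets were alternatives. The study's own normalisation package was not used.

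The chains and gene lists were chosen with earlier results of these data known. Genes named are the 6 chains, the 3 most correlated genes per chain (at least 10 CPM in the highest group), and per list the most abundant gene and the 2 called genes with the largest change in each comparison. Marker lists covered basophils, B cells, neutrophils, monocytes and macrophages, T cells, NK cells, mast cells, eosinophils, dendritic cells, and erythroid cells and platelets. No protein sequence was used here, and 1 gene of the signalling list, kept in its counts, is not reported here by name.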

Additional observations from a re-analysis of the deposited data

How the results depend on the processing

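Among 630 refits of single chains, 541 kept direction and call, 41 lost the call, 27 gained it and 21 changed sign, all of the last without a call. Chains called were 1 in BaPs against pre-basophils (0 under RLE scaling, library size alone, DEGES scaling, which sets changed genes aside, or the 2 groups alone, 2 without the count filter, 0 to 1 leaving out 1 library), 2 in pre-basophils against BM mature basophils (0 to 2 leaving out 1 library), 2 in spleen against BM mature basophils (5 with the 2 groups alone, 0 to 5 leaving out 1 library), and 1 in BaPs against BM mature basophils (2 under library size alone, upper-quartile scaling or limma-voom, 4 without the filter, 1 to 3 leaving out 1 library). In the F test they were 3 (5 without the filter, 3 to 5 leaving out 1 library). In BaPs and pre-basophils against spleen the counts stayed at 2 and at 2 to 4. Fcer1a in spleen against BM mature basophils was also called by the DESeq2 Wald test (log2 -0.80, adjusted p = 0.0337). The same call came without the count filter (-0.76, edgeR adjusted p = 1.07e-05) and without BaP replicate 1 (-0.78, 0.0493). The Ms4a2 to Fcer1a difference passed without pre-basophil replicate 1 (0.18, exact p = 0.0216) or BM mature replicate 2 (0.17, exact p = 0.0260), within a leave-one-out range of 0.10 to 0.18.

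Log2 values that changed sign were, in pre-basophils against BM mature basophils, Fcer1g 0.17 and Fcgr2b 0.15 and Fcgr3 0.0515 under library size alone, Fcer1g 0.0281 and Fcgr2b 0.0172 under DEGES scaling, and Fcer1g leaving out 1 library (-0.0943 to 0.0046). In BaPs against spleen mature basophils, Fcer1g became -0.00023 under RLE scaling, -0.0529 under upper-quartile scaling, -0.0099 without the filter, -0.0255 under limma-voom, -0.0123 with the replicate block and -0.12 to 0.23 leaving out 1 library. There Fcgr2b became 0.15 under library size alone, 0.0322 under DEGES scaling and -0.28 to 0.16 leaving out 1 library, and Fcgr3 0.15, 0.0365 and -0.33 to 0.20. The cause was not tested.

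Over all genes, the median log2 fold change lay between 0.08 and 0.48 under library size alone and between -0.05 and 0.15 under DEGES scaling. Genes called in BaPs against pre-basophils were 1068 (1620 under library size alone, 2091 without the filter, 375 with the 2 groups alone, 382 to 1831 leaving out 1 library), and in spleen against BM mature basophils 1181 (1796 without the filter, 2340 with the 2 groups alone, 241 to 2653 leaving out 1 library).

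With the replicate block, 3 chains were called in BaPs against BM mature basophils in place of 1, and Fcer1a was called in spleen against BM mature basophils (-0.79, edgeR adjusted p = 0.0307), where the numbers do not pair libraries. The block changed no other call of a chain. Fcgr4 lies at the floor, and 3 pools a group limit differences that can be called to well above the spread between pools.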
